A study of Arabidopsis thaliana with 22 samples.

Results

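The 34 genes described here encode the enzymes and transporters with which an Arabidopsis thaliana leaf makes starch, breaks it down, makes sucrose and moves sugars out of the chloroplast and the cell. They were taken by locus number from the 25680 loci of the deposited expression table, with no threshold on any measured value, and comprise 12 genes of starch synthesis, 13 of starch breakdown, 4 of sucrose synthesis and 5 sugar transporters. The study sequenced RNA of mature leaves from 4 mutants of photorespiration, the pathway that recycles the product made when Rubisco fixes oxygen in place of CO2, and asked how their leaves respond when CO2 drops. The mutants were shm1-2 (mitochondrial serine hydroxymethyltransferase), glyk1-1 (glycerate kinase), pglp1-1 (phosphoglycolate phosphatase) and hpr1-1 (peroxisomal hydroxypyruvate reductase), each a single T-DNA insertion line, and they were set against wild type (WT). All plants, WT included, were raised in air with 1% CO2 (high CO2, HC) to the stage at which the first flower buds become visible. Some were then moved to 0.038% CO2 (low CO2, LC) at the end of a night, and their leaves were harvested 8 h after the light came on. The labels do not say plainly at which hour the HC leaves were taken, so hour and CO2 level cannot be told apart with certainty wherever LC is set against HC. Each mutant had 2 libraries at each CO2 level and WT had 3, which makes 22 libraries in 10 groups. The samples are called biological replicates, but nothing says whether each came from separate plants or pools, so p-values measure the spread between these samples.

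Starch is the store that leaf chloroplasts lay down by day and spend by night. Glucose phosphate is turned into ADP-glucose by ADP-glucose pyrophosphorylase, starch synthases add its glucose to growing chains, and branching and debranching enzymes shape the chains into a granule. At night the granule surface is phosphorylated and dephosphorylated, beta-amylases and debranching enzymes release maltose, and maltose leaves the chloroplast to be turned into sucrose in the cytosol. Many transcripts of the breakdown pathway are known to peak around dusk under the control of the circadian clock, while the proteins vary much less over the day.

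Library totals ran from 5.91 M to 194.5 M counts. In WT LC replicate 3 the values of 5011 loci (19.5%) stood in the wrong rows, so 6 of the 34 genes (SEX4, BAM1, PHS1, PHS2, TPT and SWEET11) have 2 WT LC values in place of 3. Each disrupted gene was lower in its own mutant at LC than in WT LC, at a log2 change of −5.34 for SHM1 in shm1, −7.44 for GLYK in glyk1, −3.80 for PGLP1 in pglp1 and −7.03 for HPR1 in hpr1. Mesophyll markers (RBCS1A, CAB1 and CA1) summed to 2141 to 4139 CPM (counts per 1000000 of the TMM-normalised library) in shm1 LC, 18867 to 19692 CPM in glyk1 LC, 58188 to 68737 CPM in pglp1 LC and 20929 to 22389 CPM in hpr1 LC, against 13026 to 58182 CPM in WT LC. All 3 of them were called lower in shm1 LC and none of the 3 in glyk1 LC or pglp1 LC. Epidermis markers summed to 52.2 to 57.6 CPM in shm1 LC, 140 to 155 CPM in glyk1 LC, 118 to 130 CPM in pglp1 LC and 192 to 311 CPM in hpr1 LC, against 199 to 321 CPM in WT LC. Of the 3 epidermis markers, 2 were called lower in shm1 LC and 1, CER6, in glyk1 LC and in pglp1 LC. CER6, an enzyme of wax synthesis, was at −2.46 in shm1, −0.90 in glyk1 and −1.46 in pglp1. The senescence marker SAG13 rose at LC by 7.40 in shm1, 4.00 in glyk1 and 4.89 in pglp1 on the log2 scale. In hpr1 LC it was at 2.70 and was not called. Its values there, 143 and 71.1 CPM, lay above the 44.8, 2.30 and 1.98 CPM of WT LC. The other senescence marker, SAG12, and the root markers RHD6 and EXPA7 were not among the loci tested. The mesophyll sum lay below all 3 WT LC libraries in shm1 only. In glyk1 and hpr1 it lay above WT LC replicate 1 (13026 CPM) but below replicates 2 and 3 (36206 and 58182 CPM). The epidermis sum was lower and SAG13 was called higher in shm1, glyk1 and pglp1. The part of these markers in the results below was not tested. In whole leaves, fewer cells of a type and less RNA per cell cannot be told apart.

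At high CO2 the transcripts of the pathway differed widely in abundance per unit of length (RPKM). In WT HC the triose phosphate/phosphate translocator TPT, which exports the day's photosynthate from the chloroplast, had the highest deposited value of the 34 at 696 ± 136 RPKM (SD, n = 3, as for the other values of this paragraph). The cytosolic alpha-glucan phosphorylase PHS2 followed at 354 ± 52.2 RPKM, the main night beta-amylase BAM3 at 324 ± 75.8 RPKM, the glucan, water dikinase GWD1 at 235 ± 79.6 RPKM and the small subunit of ADP-glucose pyrophosphorylase, APS1, at 197 ± 13.8 RPKM. TPT stood clear of PHS2, whereas each later neighbour in this order overlapped the one before it within 1 SD. At the low end stood the granule-bound starch synthase GBSS1 at 8.86 ± 5.53 RPKM, the cytosolic beta-amylase BAM5 at 7.91 ± 9.83 RPKM, the glucose 6-phosphate translocator GPT2 at 4.32 ± 5.50 RPKM and the sucrose phosphate synthase SPS2F at 2.93 ± 1.03 RPKM, which also overlapped their neighbours within 1 SD.

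No member was called in any mutant against WT at HC by edgeR's quasi-likelihood test with Benjamini-Hochberg adjustment over all 20368 loci tested, the test behind every adjusted p-value here (threshold 0.05). At an unadjusted p under 0.05 there were 2 members in shm1, 3 in glyk1, 8 in pglp1 and 1 in hpr1, where 9.03% of all loci were at this level in shm1, 10.1% in glyk1, 20.8% in pglp1 and 2.57% in hpr1. DESeq2 called 2 in shm1 (BAM5 and SPS4F), 2 in glyk1 (BAM5 and GPT2), 6 in pglp1 (PGI1, PGM1, PWD, SPS4F and cFBP higher, BAM5 lower) and 0 in hpr1, beside 0.720%, 1.37%, 9.48% and 0.0345% of all loci in the same order. By edgeR, 0.0147% of all loci were called in shm1 HC, 0.00491% in glyk1 HC, 3.18% in pglp1 HC (1.42% higher, 1.76% lower) and 0.00491% in hpr1 HC. The lower calls in shm1 HC were 0.00982% of all loci. In pglp1 HC the sucrose phosphate synthase SPS4F had 126 and 138 CPM, against 75.5, 32.2 and 29.2 CPM in WT HC, which differ by 1.53 (SE 0.43, adjusted p = 0.0656) on the log2 scale. Both pglp1 libraries lay above all 3 WT libraries, and the difference did not pass the adjusted threshold. Such a lack of overlap was not particular to SPS4F among the members.

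At low CO2 most of these genes were lower in shm1 and pglp1 than in WT, and fewer passed the test in glyk1. In shm1 LC against WT LC, 25 members fell and 4 rose, where 65.3% of all loci tested were called (32.6% lower, 32.7% higher). In glyk1 LC, 14 fell and 4 rose, where 54.5% of all loci were called (28.1% lower, 26.4% higher). In pglp1 LC, 19 fell and 6 rose, where 59.3% of all loci were called (32.4% lower, 26.8% higher). In hpr1 LC none was called, where 2.13% of all loci were (1.62% higher, 0.516% lower). The lower share of the members exceeded that of all loci in each of shm1, glyk1 and pglp1, and the higher share fell short of it. The median log2 fold change over the 34 genes was −2.32 in shm1, −0.80 in glyk1, −1.12 in pglp1 and −0.07 in hpr1, beside medians over all loci of −0.02, −0.13, −0.22 and 0.03 in the same order. All 4 mutants share the same WT LC libraries, so their fold changes are not independent of each other. Changes of single genes are given below as log2 fold changes, negative where the mutant was lower.

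Of the 34 genes, 12 fell in each of shm1, glyk1 and pglp1 at LC: APL3, SS1, SS4, SBE2.1, SBE2.2 and ISA1 of starch synthesis, ISA3, PWD, SEX4, DPE1 and PHS1 of breakdown, and the maltose exporter MEX1. A further 7 fell in 2 of the 3 mutants and 8 in 1. GPT2 and BAM1 rose in all 3. SPS4F was the only member called in opposite directions, lower in shm1 and higher in pglp1.

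**Figure D1:**
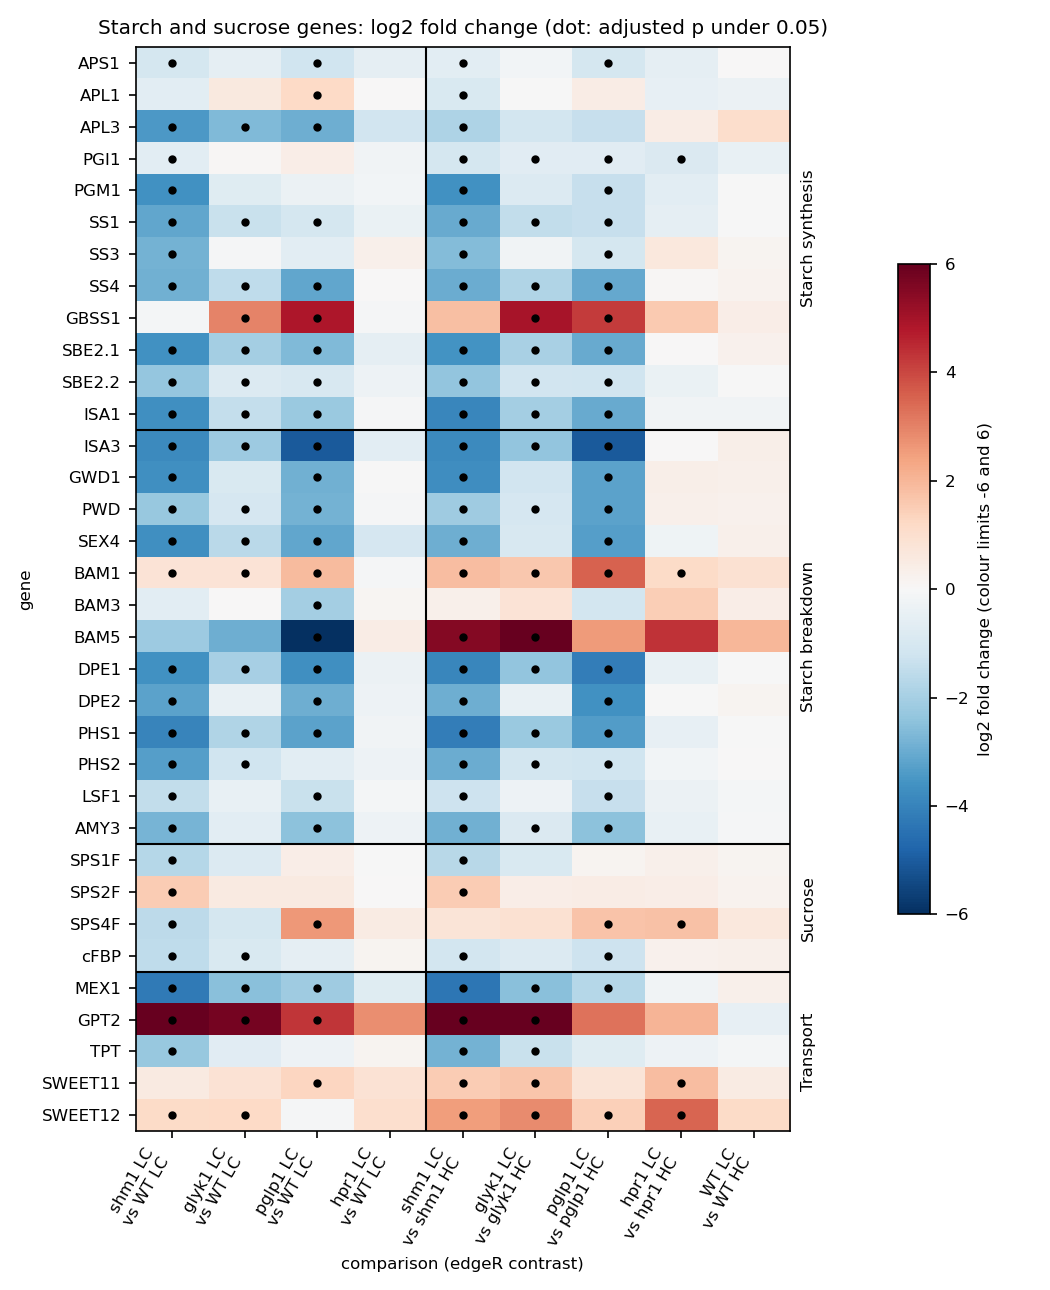
Log2 fold change of the 34 genes (rows, grouped by role). The columns left of the vertical line set each mutant at low CO2 against wild type at low CO2 (shm1, glyk1, pglp1, hpr1). Those right of it set each genotype at low CO2 against its own high CO2 (shm1, glyk1, pglp1, hpr1, WT). Dots mark an adjusted p under 0.05. The colour scale ends at −6 and 6. Left of the line, only BAM5 in pglp1 (−7.19) and GPT2 in shm1 (6.36) lie past it. On the right, GPT2 in shm1 (8.67) and glyk1 (9.83) and BAM5 in glyk1 (6.13) do. Against wild type, GPT2 and BAM1 are higher in shm1, glyk1 and pglp1, while most of the rows of starch synthesis and breakdown are lower.

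Among the genes that supply ADP-glucose, most fell in shm1, while pglp1 showed members called in both directions. PGI1 and PGM1 are the plastidial phosphoglucose isomerase and phosphoglucomutase that turn fructose 6-phosphate into glucose 1-phosphate. PGM1 (AT5G51820) had 17.6 and 7.07 CPM in shm1 LC, 94.8 and 89.995 CPM in glyk1 LC, 119 and 125 CPM in pglp1 LC, 128 and 146 CPM in hpr1 LC, and 122, 212 and 131 CPM in WT LC. Both shm1 libraries lay far below every WT LC library, with a log2 change of −3.65 (SE 0.41, adjusted p = 3.89e-06), while in glyk1 and pglp1 it was −0.75 (adjusted p = 0.0878) and −0.34 (adjusted p = 0.416). PGI1 (AT4G24620) had 49.7 and 43.5 CPM in shm1 LC, 83.5 and 69.4 CPM in glyk1 LC, 93.9 and 97.7 CPM in pglp1 LC, 61.8 and 64.9 CPM in hpr1 LC, and 56.9, 91.2 and 69.7 CPM in WT LC. It fell in shm1 at a log2 change of −0.64 (adjusted p = 0.0182). The call was lost without WT LC replicate 2, at −0.44 (adjusted p = 0.0840), or without shm1 LC replicate 2, at −0.54 (adjusted p = 0.140).

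ADP-glucose pyrophosphorylase, the enzyme that commits carbon to starch, has a catalytic small subunit (APS1) and regulatory large subunits, of which APL1 is the main one of leaves and APL3 is known as sugar-inducible. APL1 (AT5G19220) had 123 and 138 CPM in shm1 LC, 343 and 264 CPM in glyk1 LC, 466 and 464 CPM in pglp1 LC, 211 and 199 CPM in hpr1 LC, and 123, 261 and 218 CPM in WT LC. It rose in pglp1, where both libraries lay above every WT LC library, by 1.21 (SE 0.29, adjusted p = 0.00250) on the log2 scale, and was not called in shm1 or glyk1. APL3 (AT4G39210) had 9.73 and 6.56 CPM in shm1 LC, 11.3 and 17.0 CPM in glyk1 LC, 11.1 and 12.3 CPM in pglp1 LC, 38.4 and 43.5 CPM in hpr1 LC, and 205, 36.7 and 26.4 CPM in WT LC. All 6 libraries of shm1, glyk1 and pglp1 lay below the 3 of WT LC. Its log2 fold changes were −3.46 in shm1 (SE 0.74, adjusted p = 0.000905), −2.66 in glyk1 (SE 0.71, adjusted p = 0.00576) and −2.93 in pglp1 (SE 0.72, adjusted p = 0.00296). WT LC replicate 1 stood far above the other WT libraries. Without it the fold changes were −1.95 (adjusted p = 0.000357) in shm1, −1.16 (adjusted p = 0.0139) in glyk1 and −1.43 (adjusted p = 0.00410) in pglp1. APS1 fell in shm1 and pglp1, at a log2 change of −1.07 (adjusted p = 0.000817) and −1.18 (adjusted p = 0.000456), and was not called in glyk1. Fitted with only the 2 groups compared, the calls of APS1 in both mutants, of APL1 in pglp1 and of APL3 in all 3 were lost. The call of APL3 in glyk1 was also lost without glyk1 LC replicate 1, at −2.29 (adjusted p = 0.0715).

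Of the starch synthases that lengthen chains and the enzymes that branch and trim them, most were lower in all 3 mutants. SS1 (AT5G24300), which makes short chains, had 24.3 and 12.2 CPM in shm1 LC, 65.1 and 61.3 CPM in glyk1 LC, 72.8 and 80.3 CPM in pglp1 LC, 109 and 129.8 CPM in hpr1 LC, and 163, 158 and 157 CPM in WT LC. SS1 fell in all 3 mutants, with log2 fold changes of −3.13 in shm1 (SE 0.28, adjusted p = 6.69e-07), −1.34 in glyk1 (SE 0.26, adjusted p = 0.000561) and −1.06 in pglp1 (SE 0.25, adjusted p = 0.00227). The 6 mutant libraries did not overlap those of WT LC. SS4 (AT4G18240), known for setting the number of granules per chloroplast, had 30.0 and 11.8 CPM in shm1 LC, 52.0 and 55.4 CPM in glyk1 LC, 14.6 and 20.8 CPM in pglp1 LC, 131 and 188 CPM in hpr1 LC, and 121, 166 and 179.8 CPM in WT LC. Its log2 fold changes were −2.89 in shm1 (SE 0.35, adjusted p = 7.60e-06), −1.53 in glyk1 (SE 0.33, adjusted p = 0.00134) and −3.13 in pglp1 (SE 0.36, adjusted p = 4.49e-06). The fall in pglp1 was about as deep as that in shm1. SS3, the other main synthase, fell in shm1, at a log2 change of −2.85 (SE 0.35, adjusted p = 7.58e-06), and was −0.09 (adjusted p = 0.814) in glyk1 and −0.65 (adjusted p = 0.0882) in pglp1.

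Starch branching enzyme SBE2.1 (AT2G36390) introduces branch points. It had 37.7 and 13.4 CPM in shm1 LC, 63.8 and 93.7 CPM in glyk1 LC, 40.8 and 62.1 CPM in pglp1 LC, 161 and 289 CPM in hpr1 LC, and 415, 269 and 284 CPM in WT LC. The log2 fold changes were −3.66 in shm1 (SE 0.47, adjusted p = 1.17e-05), −2.03 in glyk1 (SE 0.43, adjusted p = 0.00120) and −2.65 in pglp1 (SE 0.45, adjusted p = 0.000138). Its paralogue SBE2.2 also fell in the 3 mutants, at a log2 change of −2.34 in shm1, −0.81 in glyk1 and −0.96 in pglp1, but the calls in glyk1 and pglp1 were lost when either library of the mutant or WT LC replicate 1 was left out. They stood at −0.47 (adjusted p = 0.209) in glyk1 and −0.62 (adjusted p = 0.0957) in pglp1 without the WT library. ISA1 (AT2G39930), a catalytic isoamylase that tidies the branches of the growing granule, had 7.56 and 2.49 CPM in shm1 LC, 23.4 and 25.7 CPM in glyk1 LC, 13.9 and 14.0 CPM in pglp1 LC, 51.7 and 73.5 CPM in hpr1 LC, and 71.7, 65.8 and 58.9 CPM in WT LC. For ISA1 the changes were −3.70 in shm1 (SE 0.38, adjusted p = 2.10e-06), −1.42 in glyk1 (SE 0.34, adjusted p = 0.00291) and −2.23 in pglp1 (SE 0.36, adjusted p = 9.25e-05). All 6 libraries of these mutants lay below the lowest WT LC value. The 11 HC libraries held 60.6 to 116 CPM of ISA1. Without shm1 LC replicate 1 the falls in shm1 were deeper for most of these genes, at −4.49 for PGM1, −3.74 for SS1, −3.47 for SS3, −3.75 for SS4, −4.60 for SBE2.1 and −4.74 for ISA1.

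GBSS1 (AT1G32900), the granule-bound synthase that makes amylose, rose in glyk1 and pglp1. It had 30.0 and 12.3 CPM in shm1 LC, 177 and 190.3 CPM in glyk1 LC, 641 and 685 CPM in pglp1 LC, 15.8 and 28.6 CPM in hpr1 LC, and 52.0, 11.5 and 5.75 CPM in WT LC. Both pglp1 libraries stood above 600 CPM and both glyk1 libraries above 170 CPM, while shm1, hpr1 and WT overlapped. The log2 fold change was 4.84 (SE 0.81, adjusted p = 0.000147) in pglp1 and 2.98 (SE 0.76, adjusted p = 0.00443) in glyk1, against −0.13 (adjusted p = 0.886) in shm1. Per unit of length GBSS1 averaged 213 ± 18.8 RPKM in pglp1 LC (SD, n = 2), where only TPT was higher among the 34, against 12.9 ± 14.7 RPKM in WT LC (SD, n = 3). WT LC replicate 1 was the highest WT value, and without it the fold changes were 6.26 in pglp1 and 4.41 in glyk1. Fitted with only the groups compared, the call in glyk1 was lost (3.05, adjusted p = 0.0802).

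Starch breakdown begins at the granule surface, where GWD1 and PWD add phosphate to glucan chains and SEX4 removes it again, while LSF1 is a phosphatase-like protein of the granule surface. GWD1 (AT1G10760) had 150.2 and 37.2 CPM in shm1 LC, 574 and 727 CPM in glyk1 LC, 162 and 167 CPM in pglp1 LC, 852 and 1572 CPM in hpr1 LC, and 1417, 1132 and 1112 CPM in WT LC. It fell in shm1 and pglp1, whose 4 libraries lay far below the rest, and was not called in glyk1. The log2 fold changes were −3.70 in shm1 (SE 0.53, adjusted p = 2.91e-05), −0.91 in glyk1 (SE 0.46, adjusted p = 0.108) and −2.89 in pglp1 (SE 0.51, adjusted p = 0.000198). PWD (AT5G26570) had 108 and 69.0 CPM in shm1 LC, 176 and 250.4 CPM in glyk1 LC, 54.3 and 67.2 CPM in pglp1 LC, 293 and 530.4 CPM in hpr1 LC, and 464, 385 and 456 CPM in WT LC. It fell in all 3, at a log2 change of −2.30 in shm1 (SE 0.32, adjusted p = 2.09e-05), −1.03 in glyk1 (SE 0.30, adjusted p = 0.00936) and −2.84 in pglp1 (SE 0.33, adjusted p = 4.38e-06). The value in pglp1 was the lowest. SEX4 (AT3G52180) had 28.7 and 9.74 CPM in shm1 LC, 70.9 and 90.7 CPM in glyk1 LC, 26.0 and 31.0 CPM in pglp1 LC, 101 and 146 CPM in hpr1 LC, and 314 and 178 CPM in WT LC. For SEX4 the changes were −3.68 in shm1 (SE 0.46, adjusted p = 1.05e-05), −1.61 in glyk1 (SE 0.43, adjusted p = 0.00561) and −3.11 in pglp1 (SE 0.45, adjusted p = 4.21e-05). No library of these 3 mutants reached the lower WT LC value. LSF1 fell in shm1 at a log2 change of −1.48 and in pglp1 at a log2 change of −1.34. Without glyk1 LC replicate 1 the calls in glyk1 were lost, at −0.72 (adjusted p = 0.113) for PWD and −1.44 (adjusted p = 0.0603) for SEX4, and SEX4 was at −1.20 (adjusted p = 0.0552) there without WT LC replicate 1.

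The enzymes that cut the exposed chains were called in both directions. The debranching enzyme ISA3 (AT4G09020) removes the short branches that beta-amylase leaves. It had 22.2 and 7.89 CPM in shm1 LC, 41.5 and 54.4 CPM in glyk1 LC, 6.25 and 6.89 CPM in pglp1 LC, 109 and 166 CPM in hpr1 LC, and 356, 172 and 115 CPM in WT LC. The log2 fold changes were −3.83 in shm1 (SE 0.57, adjusted p = 4.30e-05), −2.16 in glyk1 (SE 0.52, adjusted p = 0.00310) and −5.03 in pglp1 (SE 0.62, adjusted p = 8.16e-06). The 2 pglp1 values were the lowest of any LC library for this gene. BAM3, the main leaf beta-amylase of the night, fell in pglp1, at a log2 change of −2.02 (SE 0.52, adjusted p = 0.00405), and was −0.63 (adjusted p = 0.277) in shm1 and 0.03 (adjusted p = 0.961) in glyk1. Without WT LC replicate 1 the value in pglp1 was −1.17 (adjusted p = 0.0139). The calls of BAM3 in pglp1 and of ISA3 in glyk1 held with each library left out. Each of them was lost in another of the alternative fits. The chloroplast alpha-amylase AMY3 fell in shm1 and pglp1, at a log2 change of −2.78 and −2.44.

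BAM1 (AT3G23920), a chloroplast beta-amylase known for starch breakdown by day in guard cells and under stress, rose instead. It had 129 and 128 CPM in shm1 LC, 144 and 114 CPM in glyk1 LC, 267 and 270.4 CPM in pglp1 LC, 51.4 and 86.9 CPM in hpr1 LC, and 99.6 and 45.4 CPM in WT LC. For BAM1 the changes were 0.83 in shm1 (SE 0.30, adjusted p = 0.0239), 0.83 in glyk1 (SE 0.30, adjusted p = 0.0291) and 1.89 in pglp1 (SE 0.30, adjusted p = 0.000102). The 2 pglp1 libraries were the highest. The calls in shm1 and glyk1 were lost without WT LC replicate 2, at 0.24 (adjusted p = 0.447) and 0.26 (adjusted p = 0.437). They were also lost without shm1 LC replicate 1 (0.73, adjusted p = 0.138) or 2 (0.84, adjusted p = 0.0680), and without glyk1 LC replicate 1 (0.65, adjusted p = 0.172). Without WT LC replicate 1 they were 1.51 in shm1, 1.44 in glyk1 and 2.54 in pglp1. Guard cell markers summed to 1067 to 1201 CPM in shm1 LC, 1662 to 3205 CPM in glyk1 LC and 2134 to 3003 CPM in pglp1 LC, against 131 to 2181 CPM in WT LC. The highest WT LC sum, that of replicate 3, covers 3 of the 4 markers. Of the 4, 2 were called higher in shm1 LC, 1 in glyk1 LC and 1 in pglp1 LC, where 1 was called lower. The part of these markers in the BAM1 values was not tested. BAM5 (AT4G15210), a cytosolic beta-amylase found mostly in phloem, had 26.1 and 0.748 CPM in shm1 LC, 7.44 and 8.43 CPM in glyk1 LC, 0.708 and 0.172 CPM in pglp1 LC, 128 and 36.3 CPM in hpr1 LC, and 101, 4.10 and 75.7 CPM in WT LC. The WT LC libraries themselves spanned a wide range, and the fall in pglp1, −7.19 (SE 2.11, adjusted p = 0.00905), was no longer called without either pglp1 LC library (−8.33, adjusted p = 0.0535 without replicate 1 and −6.26, adjusted p = 0.0859 without replicate 2).

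The enzymes that process the released glucans were mostly lower. DPE1 (AT5G64860), which rearranges short maltooligosaccharides in the chloroplast, had 8.37 and 5.18 CPM in shm1 LC, 15.8 and 26.6 CPM in glyk1 LC, 7.20 and 6.20 CPM in pglp1 LC, 52.3 and 80.3 CPM in hpr1 LC, and 82.8, 96.0 and 76.7 CPM in WT LC. Its log2 fold changes were −3.65 in shm1 (SE 0.31, adjusted p = 4.97e-07), −2.01 in glyk1 (SE 0.29, adjusted p = 5.19e-05) and −3.67 in pglp1 (SE 0.32, adjusted p = 3.85e-07). The 4 shm1 and pglp1 values were below 10 CPM. DPE2 (AT2G40840), the cytosolic transglucosidase that uses maltose, had 55.2 and 18.7 CPM in shm1 LC, 211 and 297 CPM in glyk1 LC, 46.6 and 44.9 CPM in pglp1 LC, 203 and 363 CPM in hpr1 LC, and 511, 278 and 244 CPM in WT LC. DPE2 was lower in shm1 and pglp1 and was not called in glyk1. Its log2 fold changes were −3.22 in shm1 (SE 0.49, adjusted p = 5.09e-05), −0.44 in glyk1 (SE 0.43, adjusted p = 0.403) and −2.91 in pglp1 (SE 0.48, adjusted p = 0.000124). PHS1 (AT3G29320), the chloroplast phosphorylase, had 39.2 and 13.5 CPM in shm1 LC, 110.1 and 121 CPM in glyk1 LC, 43.3 and 43.4 CPM in pglp1 LC, 334 and 374 CPM in hpr1 LC, and 335 and 479 CPM in WT LC. For PHS1 the changes were −3.95 in shm1 (SE 0.40, adjusted p = 1.84e-06), −1.82 in glyk1 (SE 0.36, adjusted p = 0.000842) and −3.23 in pglp1 (SE 0.39, adjusted p = 7.08e-06). The 11 HC libraries held 359.6 to 574 CPM. PHS2 (AT3G46970), the cytosolic phosphorylase that works beside DPE2, had 154 and 41.7 CPM in shm1 LC, 349 and 497 CPM in glyk1 LC, 535 and 688 CPM in pglp1 LC, 653 and 906 CPM in hpr1 LC, and 1116 and 793 CPM in WT LC. It fell in shm1 and glyk1 and was not called in pglp1. The log2 fold changes were −3.28 in shm1 (SE 0.47, adjusted p = 3.18e-05), −1.17 in glyk1 (SE 0.44, adjusted p = 0.0343) and −0.64 in pglp1 (SE 0.43, adjusted p = 0.215). The call of PHS2 in glyk1 was lost without WT LC replicate 1 (−0.97, adjusted p = 0.129) or either glyk1 LC library (−0.94, adjusted p = 0.207 without replicate 1 and −1.45, adjusted p = 0.0556 without replicate 2).

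The 2 shm1 LC libraries differed from each other, with replicate 2 below replicate 1 for every breakdown gene other than BAM3, so the size of the fall depends on the library. Without shm1 LC replicate 1 the log2 fold change was −5.06 for GWD1, −4.78 for ISA3, −4.75 for SEX4, −4.22 for DPE2, −4.97 for PHS1, −4.59 for PHS2 and −3.55 for AMY3. Without replicate 2 it was −3.01 for GWD1, −2.62 for DPE2 and −2.62 for PHS2, and each of these stayed called.

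**Figure D2:**
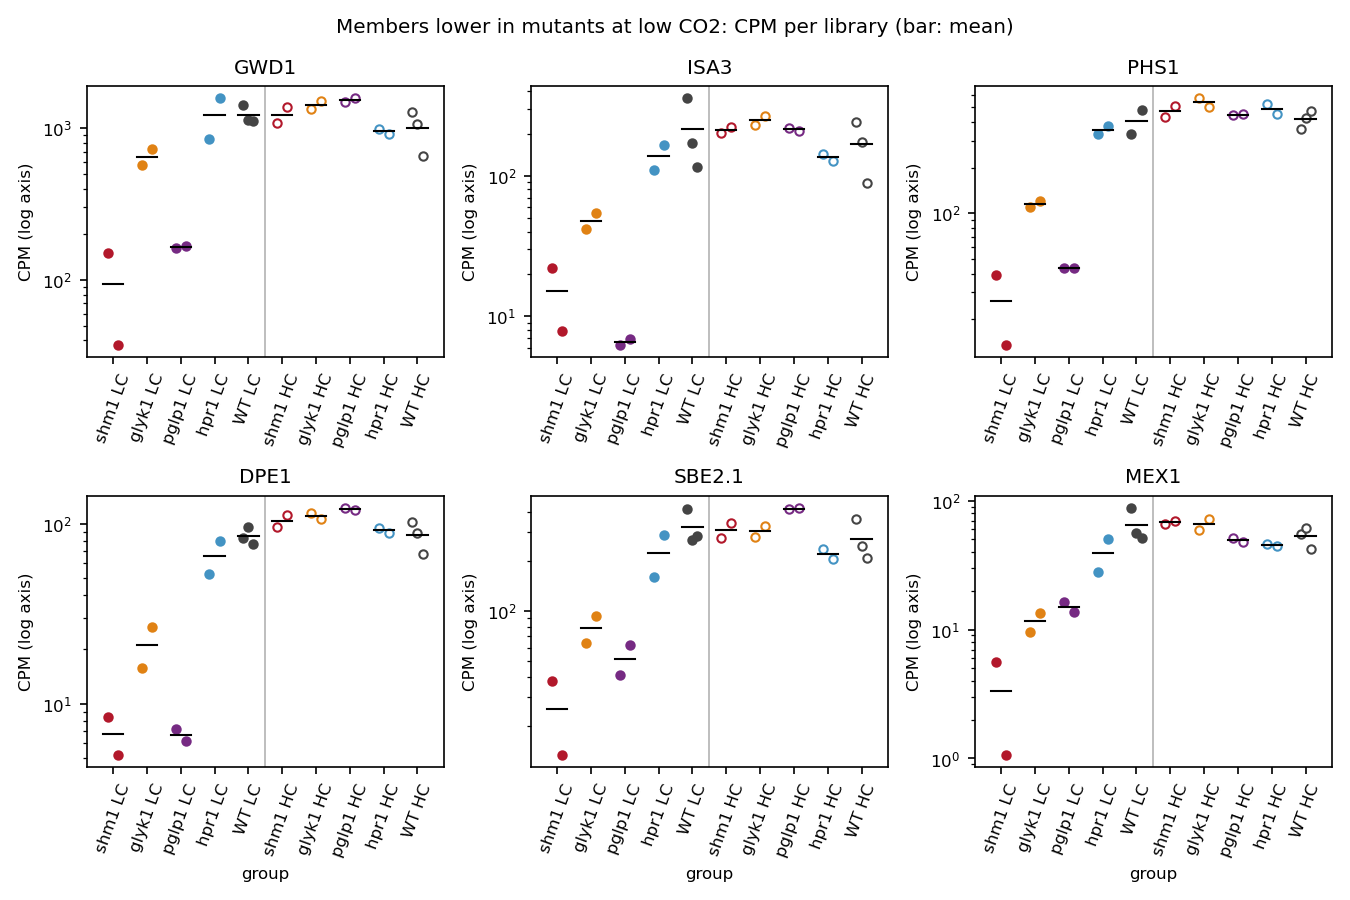
TMM-normalised CPM (log axis) of GWD1, ISA3, PHS1, DPE1, SBE2.1 and MEX1 in each library, with groups ordered shm1, glyk1, pglp1, hpr1 and WT at low CO2 and then at high CO2; each point is a library and each bar is the group mean. In DPE1 the shm1 and pglp1 points at low CO2 lie between 5.18 and 8.37 CPM, below the WT points at 76.7 to 96.0 CPM, while the high-CO2 libraries lie between 67.4 and 122 CPM.

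The sequence just upstream of each gene was read from the TAIR10.1 assembly with RefSeq's gene models, as a window from 250 bases before to 50 bases after the annotated gene start, for all 34 genes and for 27443 gene starts in all. Motifs of clock and light responses were searched on both strands, with no overlap found between matches of different motifs. The evening element AAAATATCT, a motif bound by clock proteins of the morning, was found in 7 of the 34 windows (PGM1, ISA3, GWD1, PWD, DPE1, SPS1F and GPT2), against 2.82% of all windows. The CCA1-binding site AAAAATCT was found in 4 (SBE2.2, ISA1, DPE2 and TPT), against 7.88% of all windows. The G-box CACGTG, bound by bHLH and bZIP factors, was found in 10 (PGI1, SS1, SS3, SS4, SBE2.1, ISA3, DPE1, PHS1, PHS2 and LSF1), against 7.68% of all windows. Among the 12 genes that fell in all 3 mutants, 3 held the evening element, 2 the CCA1-binding site and 6 the G-box, beside 4, 2 and 4 of the other 22. A match describes letters and not binding.

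Promoters are printed for 2 genes that fell in all 3 mutants and hold an evening element (ISA3 and PWD), for the one with the most G-boxes (PHS1, with 3; SS4, DPE1 and LSF1 hold 2 each) and for the member with the highest fold change in shm1 and glyk1 (GPT2). All 4 are on the + strand, read 5′ to 3′, and end with the first 10 bases of the annotated gene. Capitals mark the motif matches, an evening element on the reverse strand in ISA3 and PWD, G-boxes in PHS1 and an evening element in GPT2. They lie at chr4:5783659-5783918 (ISA3), chr5:9261229-9261488 (PWD), chr3:11252557-11252816 (PHS1) and chr1:22824164-22824423 (GPT2).
ISA3: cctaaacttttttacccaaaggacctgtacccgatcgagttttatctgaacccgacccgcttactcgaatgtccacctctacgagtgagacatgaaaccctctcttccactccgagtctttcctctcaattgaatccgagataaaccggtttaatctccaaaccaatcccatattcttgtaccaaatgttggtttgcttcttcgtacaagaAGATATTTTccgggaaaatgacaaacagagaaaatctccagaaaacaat
PWD: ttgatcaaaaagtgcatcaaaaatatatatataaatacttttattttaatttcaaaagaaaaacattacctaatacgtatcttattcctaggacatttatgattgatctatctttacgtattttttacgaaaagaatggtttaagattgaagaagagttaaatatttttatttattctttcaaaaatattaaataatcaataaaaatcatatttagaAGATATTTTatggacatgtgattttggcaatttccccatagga
PHS1: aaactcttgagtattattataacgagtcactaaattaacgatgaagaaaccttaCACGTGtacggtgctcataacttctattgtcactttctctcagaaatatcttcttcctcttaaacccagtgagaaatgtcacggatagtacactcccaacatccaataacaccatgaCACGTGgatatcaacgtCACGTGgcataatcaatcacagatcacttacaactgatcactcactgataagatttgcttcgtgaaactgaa
GPT2: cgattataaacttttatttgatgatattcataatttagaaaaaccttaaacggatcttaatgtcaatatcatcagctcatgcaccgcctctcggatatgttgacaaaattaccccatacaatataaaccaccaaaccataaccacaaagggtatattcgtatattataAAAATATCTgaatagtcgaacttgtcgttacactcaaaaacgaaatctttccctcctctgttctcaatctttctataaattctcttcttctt

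The median changes of synthesis and breakdown genes lay close together in shm1 and far apart in pglp1. In shm1 LC, 10 of 12 synthesis genes fell and none rose (median log2 fold change −2.87), and 10 of 13 breakdown genes fell and 1 rose (median −3.22). In glyk1 LC, 6 of 12 synthesis genes fell and 1 rose (median −0.78), and 6 of 13 breakdown genes fell and 1 rose (median −1.03). In pglp1 LC, 7 of 12 synthesis genes fell and 2 rose (median −1.01), and 11 of 13 breakdown genes fell and 1 rose (median −2.89). The median of breakdown minus that of synthesis was −0.35 in shm1, −0.25 in glyk1, −1.88 in pglp1 and −0.01 in hpr1. Leaving out each library in turn moved it between −0.61 and −0.23 in shm1, −0.57 and 0.04 in glyk1, −1.92 and −1.83 in pglp1, and −0.14 and 0.17 in hpr1.

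Summed levels were compared over the 12 synthesis genes and the 9 breakdown genes that WT LC replicate 3 also covers. The breakdown sum thus leaves out SEX4, BAM1, PHS1 and PHS2. Among these are the only breakdown genes not called lower in pglp1 LC, BAM1 (higher) and PHS2 (not called). PHS2 alone was about as high in pglp1 LC as the sum of the 9, so the ratios do not describe the whole set. The breakdown sum divided by the synthesis sum was 0.307 and 0.337 in pglp1 LC, 1.70 and 1.81 in shm1 LC, 1.74 and 1.94 in glyk1 LC, and 2.05 and 2.64 in hpr1 LC, against 2.61, 1.68 and 1.798 in WT LC. Over the 11 HC libraries it ran from 1.44 to 2.12. Both pglp1 LC libraries lay below every other library. GBSS1 accounts for part of their synthesis sum, and without it the ratio was 0.488 and 0.547 in pglp1 LC, against 2.69, 1.69 and 1.804 in WT LC.

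**Figure D3:**
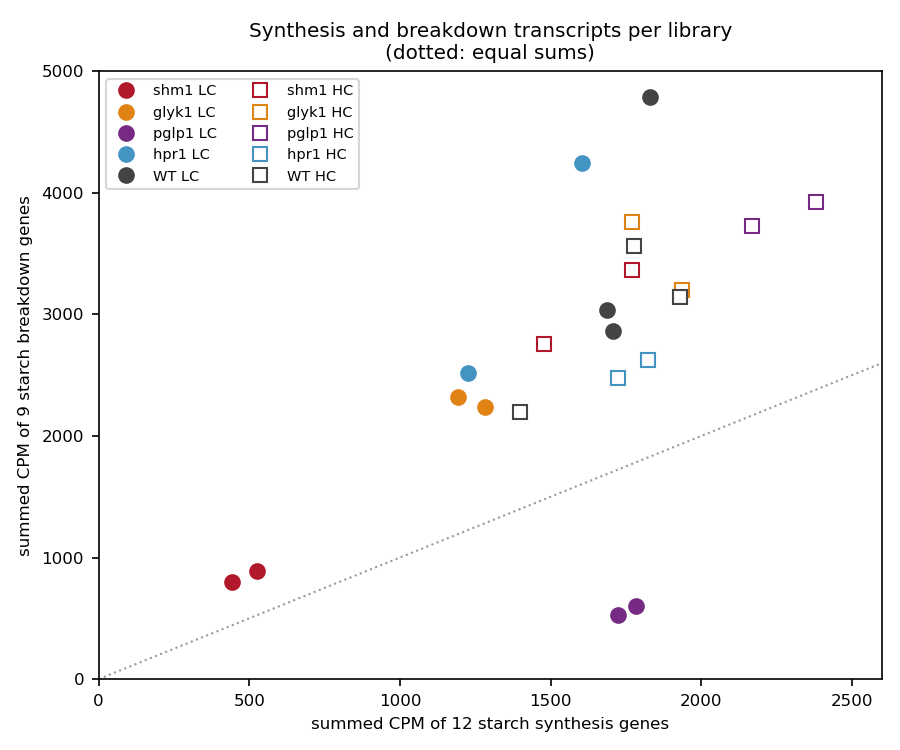
Summed CPM of the 9 breakdown genes (vertical axis) against those of the 12 synthesis genes (horizontal axis), one point per library, coloured by genotype and shaped by CO2 level. SEX4, BAM1, PHS1 and PHS2 are not in the breakdown sum. The 2 pglp1 low-CO2 points sit at 528 and 602 CPM of breakdown for 1723 and 1784 CPM of synthesis, and the 2 shm1 low-CO2 points are low on both axes, at 892 and 797 CPM of breakdown for 524 and 441 CPM of synthesis.

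Sucrose is made in the cytosol from triose phosphate by way of the cytosolic fructose-1,6-bisphosphatase (cFBP) and sucrose phosphate synthase (SPS), the step that commits carbon to sucrose. SPS4F (AT4G10120) had 19.1 and 27.3 CPM in shm1 LC, 27.7 and 39.9 CPM in glyk1 LC, 420.0 and 432 CPM in pglp1 LC, 48.5 and 150.1 CPM in hpr1 LC, and 71.5, 66.6 and 71.9 CPM in WT LC. It rose in pglp1 and fell in shm1, with log2 fold changes of −1.59 in shm1 (SE 0.46, adjusted p = 0.00710), −1.05 in glyk1 (SE 0.45, adjusted p = 0.0605) and 2.61 in pglp1 (SE 0.44, adjusted p = 0.000134). The pglp1 libraries overlapped no other group. The main leaf isoform SPS1F fell in shm1, at a log2 change of −1.70 (adjusted p = 0.00116), and SPS2F rose there, by 1.51 (adjusted p = 0.00609). Neither of these was called in glyk1 or pglp1. cFBP fell in shm1 at a log2 change of −1.52 (adjusted p = 0.000796) and in glyk1 at a log2 change of −0.90 (adjusted p = 0.0251), and was not called in pglp1. Of the 4 genes, 3 fell and 1 rose in shm1, 1 fell and none rose in glyk1, and 1 rose and none fell in pglp1. Without shm1 LC replicate 1, SPS1F was at −2.47 in shm1, and without WT LC replicate 1, SPS2F was at 2.12. The calls of SPS1F and SPS2F in shm1 held with each library left out, but each was lost in another of the alternative fits. That of SPS2F was lost with only the groups compared. The call of cFBP in glyk1 was lost without WT LC replicate 2 (−0.64, adjusted p = 0.104) or either glyk1 LC library (−0.84, adjusted p = 0.131 without replicate 1 and −0.82, adjusted p = 0.123 without replicate 2).

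The transporters moved in both directions. GPT2 (AT1G61800) exchanges glucose 6-phosphate for phosphate across the chloroplast envelope, is barely expressed in unstressed leaves and is known to be induced by sugars and by changes of light. It had 320.2 and 402 CPM in shm1 LC, 258 and 212 CPM in glyk1 LC, 74.6 and 99.8 CPM in pglp1 LC, 45.4 and 16.2 CPM in hpr1 LC, and 10.2, 2.50 and 0.174 CPM in WT LC. All 6 libraries of shm1, glyk1 and pglp1 lay above those of hpr1 and WT. The log2 fold changes were 6.36 in shm1 (SE 1.47, adjusted p = 0.00168), 5.74 in glyk1 (SE 1.44, adjusted p = 0.00400) and 4.31 in pglp1 (SE 1.36, adjusted p = 0.0137). The 3 WT LC values spread widely, from 0.174 to 10.2 CPM. Without replicate 1, the highest, the fold changes were 8.11 in shm1, 7.49 in glyk1 and 6.05 in pglp1. In shm1 LC, GPT2 reached 199 ± 14.7 RPKM (SD, n = 2), where only BAM3 was higher among the 34, against 3.40 ± 4.23 RPKM in WT LC (SD, n = 3). Fitted with only the groups compared, the calls in glyk1 and pglp1 were lost (5.83, adjusted p = 0.0531 in glyk1 and 4.47, adjusted p = 0.0681 in pglp1).

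MEX1 (AT5G17520) carries maltose out of the chloroplast at night. It had 5.63 and 1.07 CPM in shm1 LC, 9.57 and 13.5 CPM in glyk1 LC, 16.3 and 13.7 CPM in pglp1 LC, 28.2 and 50.2 CPM in hpr1 LC, and 87.4, 56.1 and 51.5 CPM in WT LC. It fell in all 3 mutants, with log2 fold changes of −4.26 in shm1 (SE 0.56, adjusted p = 1.52e-05), −2.49 in glyk1 (SE 0.51, adjusted p = 0.000969) and −2.12 in pglp1 (SE 0.51, adjusted p = 0.00229). Without shm1 LC replicate 1 or 2 the value in shm1 was −5.95 or −3.51. TPT fell in shm1, at a log2 change of −2.26 (SE 0.38, adjusted p = 0.000139), and was called in neither glyk1 nor pglp1. Without shm1 LC replicate 1 the fall was −3.04.

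SWEET11 and SWEET12 are the plasma membrane exporters through which phloem parenchyma releases sucrose for loading. SWEET12 (AT5G23660) had 102 and 102 CPM in shm1 LC, 123 and 85.6 CPM in glyk1 LC, 40.1 and 46.2 CPM in pglp1 LC, 63.0 and 118 CPM in hpr1 LC, and 52.7, 24.8 and 58.5 CPM in WT LC. It rose in shm1 and glyk1, by 1.17 (adjusted p = 0.0179) and 1.20 (adjusted p = 0.0189), and was −0.07 (adjusted p = 0.892) in pglp1. Both calls were lost without WT LC replicate 2, the lowest WT value, at 0.87 (adjusted p = 0.0659) in shm1 and 0.91 (adjusted p = 0.0669) in glyk1, and the call in glyk1 also without glyk1 LC replicate 1 (1.01, adjusted p = 0.103). SWEET11 (AT3G48740) had 56.9 and 115 CPM in shm1 LC, 99.5 and 119.8 CPM in glyk1 LC, 159.7 and 127 CPM in pglp1 LC, 66.7 and 152 CPM in hpr1 LC, and 72.4 and 46.2 CPM in WT LC. It was called in pglp1 only, at 1.27 (adjusted p = 0.00888), a call lost without WT LC replicate 2 (0.87, adjusted p = 0.106) or pglp1 LC replicate 1 (1.01, adjusted p = 0.0753). Phloem markers summed to 434 to 495 CPM in shm1 LC, 334 to 423 CPM in glyk1 LC and 295 to 313 CPM in pglp1 LC, against 346 to 467 CPM in WT LC, and their part in the SWEET values was not tested.

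**Figure D4:**
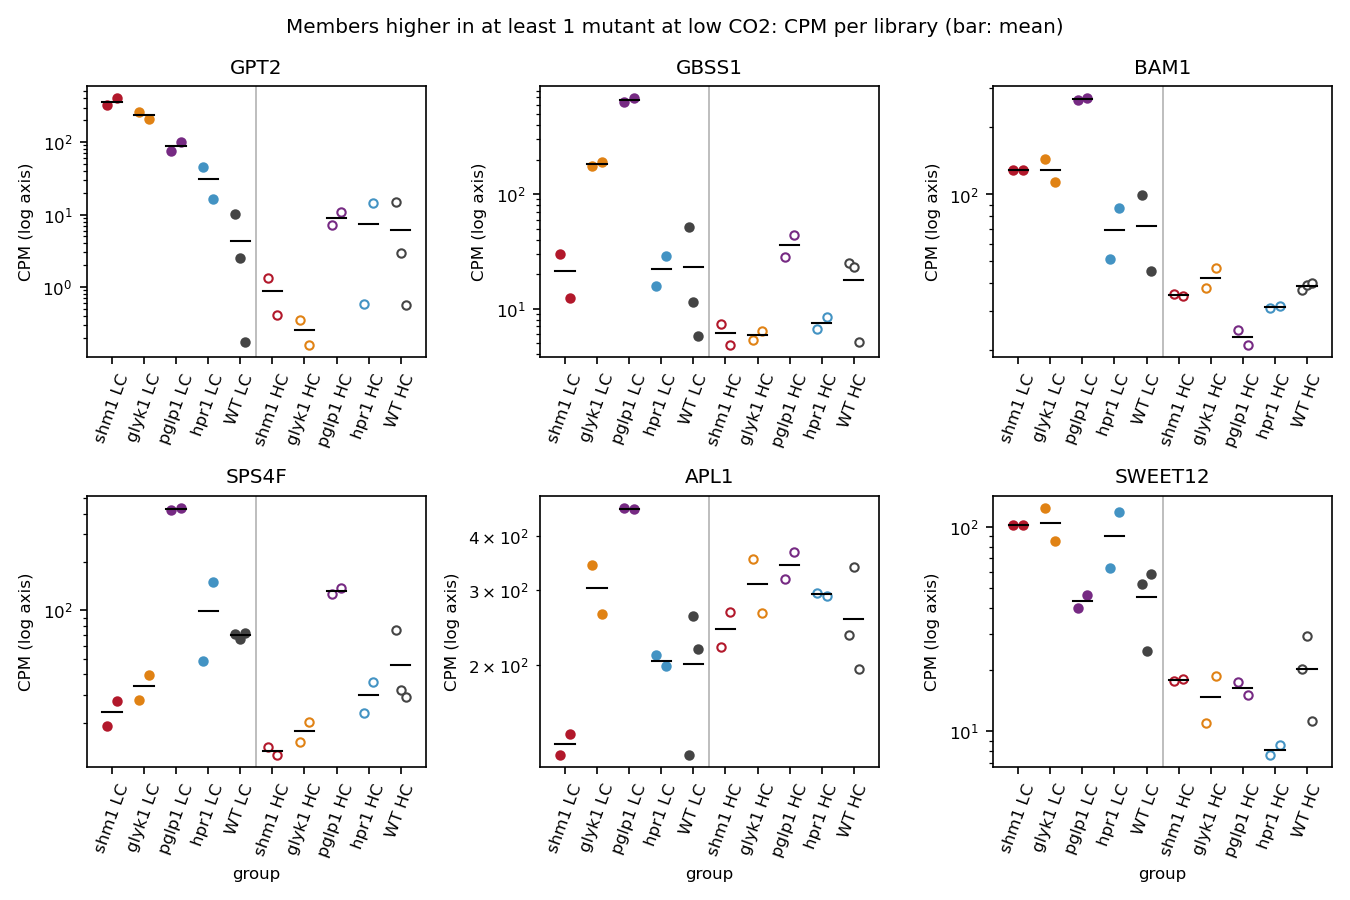
TMM-normalised CPM (log axis) of GPT2, GBSS1, BAM1, SPS4F, APL1 and SWEET12 in each library, with groups ordered shm1, glyk1, pglp1, hpr1 and WT at low CO2 and then at high CO2; each point is a library and each bar is the group mean. GPT2 stands at 74.6 to 402 CPM in shm1, glyk1 and pglp1 at low CO2 and at 0.158 to 14.8 CPM in the high-CO2 libraries, and SPS4F is highest in pglp1 at both CO2 levels.

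In hpr1 LC, no member passed the test against WT LC. At an unadjusted p under 0.05 there were 5 (APS1, SEX4, GPT2, SWEET11 and SWEET12), where 17.6% of all loci were, and DESeq2 called 1, APS1, where it called 6.69% of all loci. The log2 fold changes ran from −1.13 for APL3 to 2.79 (SE 1.31, adjusted p = 0.284) for GPT2, with 45.4 and 16.2 CPM in hpr1 LC against 10.2, 2.50 and 0.174 CPM in WT LC. Against its own HC leaves, hpr1 LC had 5 members called, where 13.0% of all loci were (7.59% higher, 5.42% lower). SWEET12 rose, with 63.0 and 118 CPM in hpr1 LC against 7.68 and 8.58 CPM in hpr1 HC, by 3.48 (SE 0.49, adjusted p = 0.00268). SWEET11 rose likewise, with 66.7 and 152 CPM in hpr1 LC against 29.3 and 31.7 CPM in hpr1 HC, by 1.85 (SE 0.38, adjusted p = 0.0135). BAM1 rose by 1.16 (adjusted p = 0.0271) and SPS4F by 1.75 (adjusted p = 0.0340), while PGI1 fell, at a log2 change of −0.88 (adjusted p = 0.0302). Each of the 5 calls was lost when some single library was left out. Without hpr1 LC replicate 2 the values were 0.73 (adjusted p = 0.336) for SPS4F, 1.05 (adjusted p = 0.128) for SWEET11 and 0.65 (adjusted p = 0.302) for BAM1, and without hpr1 HC replicate 1 SWEET12 was at 3.34 (adjusted p = 0.0851). PGI1 lost its call without any 1 of the 4 hpr1 libraries, with values between −1.05 and −0.83.

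WT LC against WT HC gave no member past the threshold, where 0.0196% of all loci were called. At an unadjusted p under 0.05 there were 3, BAM1 at 0.91, SWEET12 at 1.16 and PGI1 at −0.44 on the log2 scale, where 8.67% of all loci were at this level. DESeq2 called 1, SWEET12, where it called 1.01% of all loci. SWEET12 had 52.7, 24.8 and 58.5 CPM in WT LC, against 20.3, 29.3 and 11.2 CPM in WT HC. The 2 ranges overlapped. Same-numbered WT libraries deviated together, and with the number as a term within the WT libraries 0 members were called.

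Set against their own HC leaves, shm1, glyk1 and pglp1 again had more members lower than higher. In shm1 LC, 25 members fell and 6 rose, where 64.3% of all loci were called (31.7% lower, 32.6% higher). In glyk1 LC, 14 fell and 6 rose, where 53.8% were called (28.9% lower, 24.9% higher). In pglp1 LC, 21 fell and 4 rose, where 54.8% were called (28.7% lower, 26.1% higher). Synthesis genes fell in 11 of 12 cases in shm1, 6 of 12 in glyk1 and 9 of 12 in pglp1, and breakdown genes in 10, 6 and 10 of 13 in the same order. BAM1 and SWEET12 rose in all 3, SWEET12 in pglp1 by 1.41 (adjusted p = 0.0159), or 1.23 (adjusted p = 0.0956) without pglp1 HC replicate 2.

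GPT2 at HC had 1.34 and 0.410 CPM in shm1 HC, 0.351 and 0.158 CPM in glyk1 HC, 7.17 and 10.9 CPM in pglp1 HC, 0.575 and 14.3 CPM in hpr1 HC, and 14.8, 2.92 and 0.562 CPM in WT HC. It rose in shm1 by 8.67 (SE 1.97, adjusted p = 0.00149) and in glyk1 by 9.83 (SE 2.06, adjusted p = 0.00119) on the log2 scale, and in pglp1 it was 3.27 (adjusted p = 0.0850). Without shm1 HC replicate 1 or 2 the rise in shm1 was 9.79 or 8.02, and without glyk1 HC replicate 1 that in glyk1 was 10.72. GBSS1 at HC had 7.34 and 4.82 CPM in shm1 HC, 5.37 and 6.42 CPM in glyk1 HC, 28.5 and 44.0 CPM in pglp1 HC, 6.61 and 8.52 CPM in hpr1 HC, and 24.9, 23.2 and 5.16 CPM in WT HC. It rose in glyk1 by 4.96 (SE 0.97, adjusted p = 0.000702) and in pglp1 by 4.19 (SE 0.93, adjusted p = 0.00167). BAM1 at HC had 35.6 and 35.1 CPM in shm1 HC, 37.8 and 46.8 CPM in glyk1 HC, 24.5 and 21.039 CPM in pglp1 HC, 30.8 and 31.5 CPM in hpr1 HC, and 37.2, 39.2 and 39.8 CPM in WT HC. Its rise was 1.86 in shm1, 1.61 in glyk1 and 3.56 (SE 0.33, adjusted p = 1.29e-06) in pglp1. BAM5 was near 0 in the HC leaves of these mutants, with 0.437 and 0.137 CPM in shm1 HC and 0.140 and 0.0791 CPM in glyk1 HC, and it rose at LC by 5.50 (adjusted p = 0.0214) in shm1 and 6.13 (adjusted p = 0.0170) in glyk1. Without shm1 LC replicate 1 the value in shm1 was 1.34 (adjusted p = 0.560), and without glyk1 HC replicate 2 that in glyk1 was 6.01 (adjusted p = 0.1001). Leaving out the other HC library of glyk1 or either HC library of shm1 also ended these calls. MEX1 fell in shm1 at a log2 change of −4.33, or −5.98 without shm1 LC replicate 1 and −3.55 without replicate 2. ISA3 fell in pglp1 at −5.02.

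The change of each mutant from HC to LC was then compared with that of WT, as a difference of 2 log2 fold changes. This response was lower than that of WT for 22 members and higher for 1 in shm1, where 52.5% of all loci differed (25.7% lower, 26.7% higher). It was lower for 9 and higher for 3 in glyk1, where 37.7% of all loci differed (19.3% lower, 18.4% higher), and lower for 19 and higher for 2 in pglp1, where 40.7% differed (20.4% lower, 20.2% higher). In hpr1 no member differed, where 0.054% of all loci did (0.0442% higher, 0.00982% lower), with 2 members at an unadjusted p under 0.05 and 1, SWEET12, called by DESeq2. Of all loci, 11.7% were at an unadjusted p under 0.05 and 1.53% were called by DESeq2. The higher response called in shm1 was that of GPT2, at 9.16 (SE 2.18, adjusted p = 0.00299). In glyk1 the higher ones were GPT2 at 10.32 (adjusted p = 0.00286), GBSS1 at 4.58 (adjusted p = 0.00558) and SWEET12 at 1.66 (adjusted p = 0.0330). In pglp1 they were BAM1 at 2.65 (SE 0.41, adjusted p = 0.000191) and GBSS1 at 3.81 (adjusted p = 0.0130). Without pglp1 HC replicate 1 GBSS1 was at 3.43 (adjusted p = 0.0667) in pglp1, and SWEET12 in glyk1 lost its call without WT LC replicate 2 (1.37, adjusted p = 0.0592) or any of several other libraries. Leaving out other libraries moved values of GPT2, GBSS1 and BAM1 by more than 1.5 times without ending the call. Without WT HC replicate 1 the GPT2 response was 7.39 in shm1 and 8.55 in glyk1. Without WT LC replicate 1 it was 10.91 in shm1 and 12.07 in glyk1, that of GBSS1 was 6.01 in glyk1 and 5.24 in pglp1, and that of BAM1 was 3.41 in pglp1. Without WT HC replicate 3 the response in glyk1 was 11.02 for GPT2 and 5.22 for GBSS1. Without an HC library of the mutant the GPT2 response was 10.19 (replicate 1) or 8.43 (replicate 2) in shm1 and 11.12 (replicate 1) in glyk1.

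As same-numbered WT libraries deviated together, the responses were also fitted with the number as a term within the WT libraries. No call was lost, and 27 members differed in shm1 (4 higher, 23 lower), 15 in glyk1 (3 higher, 12 lower), 23 in pglp1 (3 higher, 20 lower) and 0 in hpr1. The higher responses gained in shm1 were GBSS1 at 1.72 (adjusted p = 0.0346), SPS2F at 1.43 (adjusted p = 0.0229) and BAM1 at 1.04 (adjusted p = 0.0362), and GPT2 was gained in pglp1 at 3.85 (adjusted p = 0.0293). The lower ones gained were PGI1 in shm1, cFBP and APL3 in glyk1, and SBE2.2 in glyk1 and pglp1.

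Among breakdown genes the response differed downwards for 10 of 13 in shm1, 4 in glyk1 and 9 in pglp1, with ISA3 at −4.15 (−5.14 without shm1 LC replicate 1), −2.72 and −5.37 in the same order.

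The 3 mutants were also compared with each other at LC, a test added after the other results were seen. Set against glyk1 LC, pglp1 LC had 10 of 13 breakdown genes lower and 1 higher (median log2 difference −1.79), but 2 of 12 synthesis genes lower and none higher (median −0.21). Over the 34 genes 13 were lower and 3 higher, where 42.4% of all loci differed (24.2% lower, 18.2% higher). ISA3 was lower, at a log2 change of −2.87 (SE 0.58, adjusted p = 0.00119), DPE2 at a log2 change of −2.47 (adjusted p = 0.00116) and GWD1 at a log2 change of −1.98 (adjusted p = 0.00617), and SPS4F was higher by 3.66 (SE 0.53, adjusted p = 0.000103). GBSS1 did not pass the test, at 1.85 (adjusted p = 0.0922), but passed it with DESeq2 (1.92, adjusted p = 0.0329) and with only these 2 groups in the fit (1.92, adjusted p = 0.000538). Set against shm1 LC, pglp1 LC had 15 members higher and 2 lower, where 53.0% of all loci differed (23.6% higher, 29.4% lower), with 8 of 12 synthesis genes and 2 of 13 breakdown genes among the higher ones. GBSS1 was higher by 4.97 (SE 0.97, adjusted p = 0.000620), or 5.78 without shm1 LC replicate 1, and SPS4F by 4.20 (SE 0.54, adjusted p = 2.00e-05), while BAM3 was lower, at a log2 change of −1.39 (adjusted p = 0.0418) and SWEET12 at a log2 change of −1.24 (adjusted p = 0.0302). Neither of these lower calls held without pglp1 LC replicate 1, at −1.20 (adjusted p = 0.170) for BAM3 and −1.14 (adjusted p = 0.116) for SWEET12. Set against shm1 LC, glyk1 LC had 22 members higher and none lower, where 36.5% differed (18.6% higher, 17.9% lower), 10 of them in synthesis and 10 in breakdown.

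Another 41 genes of the same pathways were tested beside the 34, from a list of textbook members. In shm1 LC against WT LC, 20 fell and 12 rose (median log2 fold change −0.70), in glyk1 LC 14 fell and 7 rose (median −0.56), in pglp1 LC 10 fell and 12 rose (median −0.15), and in hpr1 LC 1 fell. Of all loci 32.6% fell and 32.7% rose in shm1, 28.1% fell and 26.4% rose in glyk1, 32.4% fell and 26.8% rose in pglp1, and 0.516% fell and 1.62% rose in hpr1. The counts of pglp1 lie near these shares, so nothing is read from them about the list. Of 6 other synthesis genes, 5 fell in shm1, 3 in glyk1 and 4 in pglp1, and none rose. ISA2, the partner subunit of ISA1, fell, at a log2 change of −5.25 in shm1, −3.30 in glyk1 and −5.02 in pglp1. Of 12 other breakdown genes, 7 fell and 3 rose in shm1, 7 and 3 in glyk1, and 5 and 3 in pglp1. LSF2, a glucan phosphatase, fell, at a log2 change of −3.98, −1.42 and −2.50, and BAM6 at a log2 change of −4.19, −2.37 and −3.91, in the same order of mutants. Among 10 genes of sucrose use, 4 rose and 1 fell in shm1, 3 rose and none fell in glyk1, and 5 rose and none fell in pglp1. The cell wall invertase CWINV1, which splits sucrose outside the cell, rose by 5.94 in shm1, 3.47 in glyk1 and 3.18 in pglp1. The plastidial ATP/ADP translocator NTT1, which imports ATP, rose by 4.32, 2.82 and 3.65 in the same order. BAM9, a catalytically inactive member of the beta-amylase family, was chosen after its values were seen. It had 198 and 365 CPM in pglp1 LC, against a mean of 3.84 ± 0.587 CPM in WT LC (SD, n = 3), and differed by 6.20 (SE 0.40, adjusted p = 4.05e-08) on the log2 scale.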

How the data were processed

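RNA-seq of 22 leaf libraries was analysed from 1 deposited table of 25680 loci. Per the file headers it gives a raw count and an RPKM value per library. Per the labels, libraries were made with a TruSeq kit that does not mark strand and sequenced on 2 Illumina platforms, with no platform named for a given library. Per the submitters' processing notes, CASAVA 1.8, edgeR and the builds TAIR9 and TAIR10 were used; the sources used here name no aligner. Reads of overlapping genes on opposite strands cannot be told apart.

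The deposited counts were tested with edgeR 4.0.16 in R 4.3.3 (TMM normalisation, filterByExpr, robust quasi-likelihood test, 10 group means, all 22 libraries), with Benjamini-Hochberg adjustment over 20368 loci and a threshold of 0.05. The standard error is the absolute log2 fold change divided by the square root of F. CPM values are counts per 1000000 of the TMM-scaled library size. The deposited RPKM values are scaled to raw library totals, not by TMM, and were used to compare levels between genes. Those of GBSS1 and GPT2 are also set beside WT LC, but all fold changes rest on the counts.

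WT LC replicate 3 had 5011 loci in rows whose values disagreed with the other libraries (blocks found by windowed correlation at shifted rows, joined with the range AT3G06660 to AT3G66658, and single loci at 0 or high against all others). Those loci were fitted in 21 libraries. For TPT, the deposited value was 0, while the neighbouring locus AT5G46105 held 18372 counts there and 0 elsewhere.

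The members, gene lists and tests were chosen with earlier results of these data known. Per-library values are given for members called with the 12 largest changes in a mutant at LC, for those called in comparisons with at most 10 calls and for those called in opposite directions. Alternatives were DESeq2 1.42.0 and its size factors, no low-count filter, the groups compared alone, a replicate block, all rows as deposited and each library left out. The deviations of same-numbered libraries from their group means correlated at 0.466, 0.169 and 0.446 between WT LC and WT HC, so these numbers were taken as pairs. The labels do not say what a number marks. Leaving out both WT libraries numbered 3, a replicate term within the WT libraries, and the comparisons between mutants, were chosen after seeing the data. The code was tested on simulated data.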

Additional observations from a re-analysis of the deposited data

Results flagged for a closer look

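The response to low CO2, the change from HC to LC in a mutant minus that in WT, differed for 23 of the 34 genes in shm1 (1 higher and 22 lower), for 12 in glyk1 (3 higher and 9 lower) and for 21 in pglp1 (2 higher and 19 lower), by edgeR's quasi-likelihood test of the interaction with adjusted p-values under 0.05. Over all loci, 52.5% differed in shm1 (26.7% higher, 25.7% lower), 37.7% in glyk1 (18.4% higher, 19.3% lower) and 40.7% in pglp1 (20.2% higher, 20.4% lower). The total in glyk1 lies near its share, so nothing is read from that total about these genes. All 3 responses share the WT libraries.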

How the results depend on the processing

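Over the single-gene values, 3761 alternatives kept direction and side of the threshold, 271 lost a call, 102 gained one and 0 reversed. Counts of members called stayed within 1.5 times of the main count except as follows. DESeq2 called 1 in hpr1 LC against WT LC, 2 in shm1 HC, 2 in glyk1 HC and 6 in pglp1 HC against WT HC, 1 in WT LC against WT HC and 1 in the hpr1 response, where edgeR called 0 in each. For pglp1 HC, DESeq2's size factors gave 2, no low-count filter 1 and leaving out single libraries 0 to 1. With only the groups compared, glyk1 LC against WT LC fell to 8 (main 18) and hpr1 LC against hpr1 HC to 3 (main 5), a comparison that also gave 3 with all rows as deposited. Leaving out single libraries gave 26 to 30 in shm1, 10 to 21 in glyk1 and 22 to 25 in pglp1 LC against WT LC, 0 to 4 in hpr1 LC against hpr1 HC, 0 to 1 in WT LC against WT HC and 10 to 13 in pglp1 LC against glyk1 LC (main 16). The cause was not tested. DESeq2's size factors shifted the median of all loci by 0.12 in pglp1 LC against WT LC, 0.17 in glyk1 LC against glyk1 HC and 0.16 in pglp1 LC against shm1 LC on the log2 scale.

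Of 91 pairs of same-numbered libraries 20 correlated above 0.1 (range −0.553 to 0.466). Between groups of 2 libraries both numbers give the same correlation by construction, so these pairs are not separate observations. The 3 pairs of WT LC with WT HC were all above 0.1. Some pairs of different genotypes were too, as shm1 HC with WT LC at 0.373 and 0.382. Numbers were not taken as pairs outside WT. With a replicate block over all groups the count was 28 in shm1 LC (main 29), 18 in glyk1 LC and 25 in pglp1 LC against WT LC, 0 in WT LC against WT HC and 14 in the glyk1 response (main 12). Against WT LC, this block lost SWEET12 in shm1 (1.07, adjusted p = 0.0588) and glyk1 (1.12, adjusted p = 0.0581) and PHS2 in glyk1 (−1.17, adjusted p = 0.0522), and gained SPS4F in glyk1 (−1.23, adjusted p = 0.0453). Groups of 2 libraries limit the precision of every fold change, and BAM5 and GPT2 at HC rest on few counts.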
